A study of Mus musculus with 4 samples.

Results

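The genes described here are the mouse zinc finger genes whose symbols start with Zfp, Zbtb, Zkscan or Zscan, examined for RNA bound by the helicase MOV10 in N2A cells. They were taken by symbol, a choice made with earlier results of these data known, among the protein-coding genes of the RefSeq annotation of GRCm38.p6. The choice gave 468 genes of 21900, with 400 named Zfp, 41 Zbtb, 11 Zkscan and 16 Zscan. The study mapped MOV10 by eCLIP, in which protein is crosslinked to RNA by ultraviolet light, immunoprecipitated with its RNA fragments and sequenced beside an input. It had 4 libraries, 2 from immunoprecipitates made with an anti-MOV10 antibody and 2 inputs, all from the mouse neuroblastoma line N2A, with no treatment or genotype given. The values used came from a single list of 12236 reproducible peaks of immunoprecipitate over input. Each peak had 1 position and 2 values of the authors', read here as a log2 fold enrichment and a −log10 p, since the list names neither. The name of the list records an irreproducible discovery rate step, which keeps peaks shared by replicates, but how the values of a peak were combined is not stated.

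With a single value per peak, the spread between replicates is unknown here, as is the number of reads behind a peak. The list started at 3.001 for log2 fold enrichment and at 3.01 for −log10 p, so weaker enrichment was not represented. Transcript levels in the input were not known either. A gene without a peak is therefore not shown to be unbound, and the cell line could not be checked against the levels of its markers. No test was run on the groups of genes below, and their values are given side by side as descriptions.

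Most of these genes encode proteins with C2H2 zinc fingers, short loops held by a zinc ion that read DNA sequence in tandem arrays. Many Zfp proteins also carry a KRAB domain, which recruits the corepressor TRIM28 and silences transposable elements, and the genes of this class lie in large clusters of recent duplicates. Zbtb proteins carry a BTB domain, through which they dimerise and bind corepressors, while Zkscan and Zscan proteins carry a SCAN domain for dimerisation. The symbols also take in proteins that are no DNA-binding transcription factors. Zfp36, Zfp36l1 and Zfp36l2 encode RNA-binding proteins that destabilise AU-rich mRNAs, Zfp598 a ubiquitin ligase for collided ribosomes, Zfp106 an RNA-binding protein, and Zbtb8os a cofactor of tRNA ligation.

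MOV10 peaks were found in 32 of the 468 zinc finger genes (6.84%). A peak was counted where its midpoint lay in the gene span, on the strand of the gene where that was known. The background over all protein-coding genes was 8.28%, and among the other coding genes alone 1781 of 21432 had a peak (8.31%). The share was thus close to the background. The 32 genes held 145 peaks in 112 separate intervals once touching peaks were merged, which covered 14351 nt. At least 1 peak with a log2 fold enrichment of 4 or more was present in 8 zinc finger genes, or 1.71%, against a background of 3.49% over all coding genes.

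The zinc finger genes with peaks had lower values on most measures of enrichment than the other coding genes that had any. The difference was not tested. The strongest peak per gene had a median log2 fold enrichment of 3.58 in the zinc finger genes (interquartile range 3.29 to 3.96) and of 3.85 in the other coding genes (3.42 to 4.40). These ranges overlapped over most of their width. Of the 145 peaks, 13.8% reached a log2 fold enrichment of 4, against 33.7% of 11849 peaks in the other coding genes. The median −log10 p of the peaks was 6.43 in the zinc finger genes and 10.3 in the other coding genes. The highest was 22.9 and 400, but these are maxima of 145 and of 11849 peaks, sets of unlike size. Exactly 400 was also the maximum of the whole list and of the peaks past the ends of Ankrd52 and Sv2c. It may therefore be a ceiling of the list. A zinc finger gene with a peak held a median of 2.5, against 3 in the other genes. This order turned for peaks of at least 4 (log2), with medians of 2.5 and 2, was lost once touching peaks were merged, with 2 in both, and widened at a −log10 p of at least 5, with 1.5 and 3. By number, 10 genes held 1 peak, 13 held 2 or 3, and 9 held 5 or more. The 4 genes with most peaks, Zfp91, Zfp704, Zfp365 and Zbtb20, held 69 of the 145 (47.6%).

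**Figure D1:**
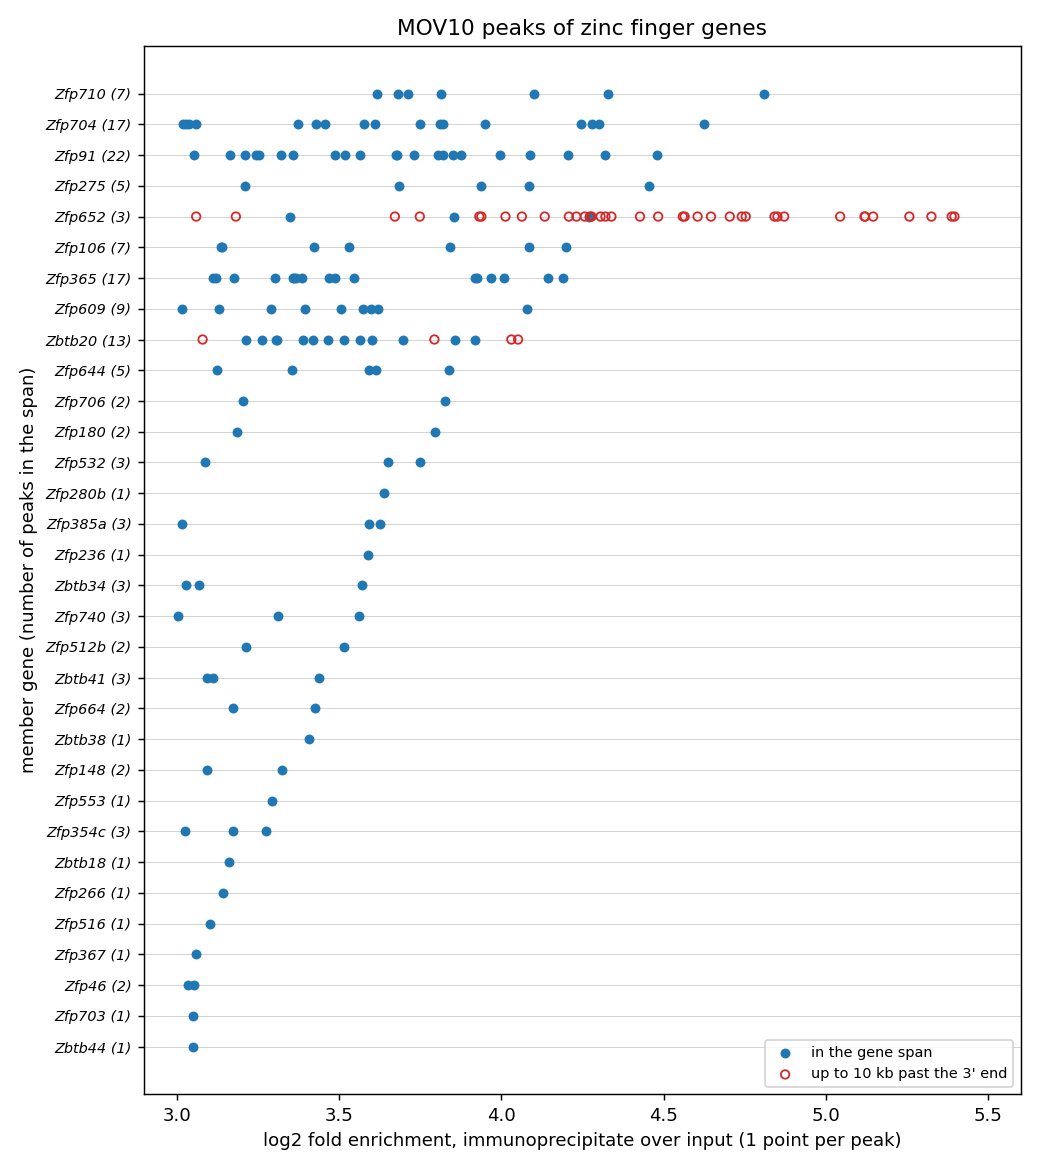
Enrichment (log2 fold over input, x axis) of every MOV10 peak in the 32 zinc finger genes with a peak in the span (1 row per gene, ordered by the strongest such peak, number of peaks in brackets), with filled points for peaks in the span and open points for peaks of Zfp652 and Zbtb20 up to 10 kb past the 3′ end. In the span Zfp710 reached the highest value, 4.81, while the open points of Zfp652 extended to 5.40.

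By name class, peaks were found among Zfp and Zbtb genes. Of the 400 Zfp genes 26 had peaks (6.50%), 123 in all, and the median of their strongest peaks was 3.63. Of the 41 Zbtb genes 6 had peaks (14.6%), 22 in all, with a median of 3.42. The exact 95% binomial interval of the Zbtb share ran from 5.57 to 29.2% and included the background of 8.28%. None of the 11 Zkscan genes and none of the 16 Zscan genes had a peak in the span, and with so few genes the exact intervals reached 28.5 and 20.6%.

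The 468 genes were also split by whether another of them lies nearby, in a split chosen after the data had been seen, and the difference between the shares was not tested. Of 238 genes with another of the 468 within 50 kb, 5 had a peak (2.10%, exact 95% interval 0.686 to 4.83). Of 230 genes with none so near, 27 had a peak (11.7%, interval 7.88 to 16.6). The intervals cover only the counting of genes. Genes called clustered below are so by distance alone. Such neighbours may be related copies and not independent, but their relatedness was not measured. Other coding genes with a zinc finger gene within 50 kb had a peak in 60 of 779 cases (7.70%), against 1721 of 20653 (8.33%) without one. The 5 clustered genes were Zfp180, Zbtb34, Zfp553, Zfp354c and Zfp266, and their strongest peaks lay between 3.14 and 3.79. Those of the isolated genes ranged from 3.05 to 4.81. Median gene spans were 15.9 kb in the clustered and 19.6 kb in the isolated genes. How reads that map to several genes were treated is not given in the sources used here, and its part in these shares was not tested.

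By chromosome the shares differed in the same way. This split was not planned either and regroups the same 468 genes, so it is not independent of the one above. The 3 single chromosomes given below are examples, picked by no set rule. Chromosomes 7, 17, 13 and 4 hold the most zinc finger genes, 233 in all, and 5 of these had a peak (2.15%), against 318 of 5013 other coding genes there (6.34%). On the remaining chromosomes 27 of 235 had one (11.5%), against 1463 of 16419 other coding genes (8.91%). On chromosome 17 the count was 0 of 51, against 63 of 1008 other coding genes (6.25%). On chromosome 7, 3 of 104 zinc finger genes had peaks (2.88%), Zfp710, Zfp180 and Zfp553, against 93 of 1926 other coding genes (4.83%). On chromosome 9, 4 of 24 did, namely Zfp609, Zbtb38, Zfp266 and Zbtb44 (16.7%, exact 95% interval 4.74 to 37.4), against 91 of 1177 other coding genes (7.73%). The intervals of these 3 single chromosomes included the share of the other genes.

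**Figure D2:**
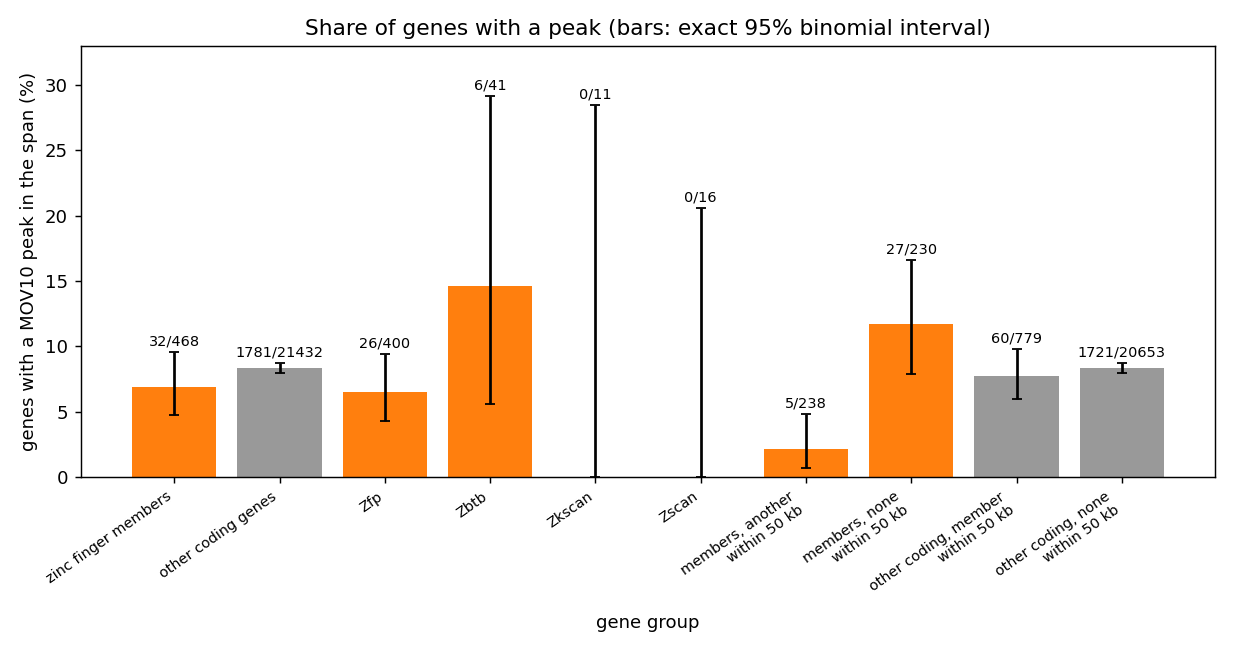
Percentage of genes with a MOV10 peak in the span (y axis) for groups of zinc finger genes (orange) and other coding genes (grey), with exact 95% binomial intervals as error bars and counts above them. The bar for zinc finger genes with another within 50 kb stands at 2.10% and that for isolated ones at 11.7%, while both grey bars split the same way stand near 8%.

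The leading gene by enrichment within the span was Zfp710, which encodes a C2H2 zinc finger protein, on chromosome 7 (plus strand). It held 7 peaks with log2 fold enrichments of 4.81, 4.33, 4.10, 3.81, 3.71, 3.68 and 3.62. The strongest, at 80092292 to 80092433, lay 389 nt before the annotated 3′ end (−log10 p 7.59), and it corresponds to a 28.0-fold enrichment. All 7 lay between 261 and 1315 nt from the end of a gene of 67.9 kb. They thus lay close together near the annotated end of the gene, in 4 separate intervals once touching peaks were merged. Among all 1813 coding genes with a peak, Zfp710 ranked 237th by its strongest peak.

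Zfp91 held the most peaks in its span, 22, with log2 fold enrichments between 3.05 and 4.48. With touching peaks merged it had 9, fewer than Zfp704 (15), Zfp365 (11) and Zbtb20 (10). It encodes a zinc finger protein known as a ubiquitin ligase of non-canonical NF-κB signalling. On chromosome 19 (minus strand), its peaks covered 1821 nt in all, the nearest 401 nt and the farthest 2924 nt before the 3′ end. The strongest, at 12769241 to 12769275, reached 4.48 with a −log10 p of 10.4. The peak with the highest −log10 p of all zinc finger genes, 22.9, was at 12769071 to 12769224 of the same gene, where enrichment was 3.68. All 22 also lie in the long non-coding RNA gene Gm44505, which is annotated on the same strand across the whole span of Zfp91, and the 2 genes cannot be told apart by these peaks.

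Zfp704, on chromosome 3, held 17 peaks, spread more widely than those of Zfp91. Its strongest, at 9427955 to 9428048, reached 4.63 (log2) and stood 992 nt before the 3′ end. The next were 4.30 at 4370 nt from the end, 4.28 at 7352 nt and 4.25 at 1152 nt. Their −log10 p values were 5.66, 3.19 and 7.59, so that of the peak of 4.28 was close to the lower limit of the list. In all, 10 peaks lay within 5 kb of the end and 7 between 5042 and 10605 nt from it. The gene spans 183 kb, so even the farthest of these peaks lay in its last part. A long non-coding RNA gene, C030034L19Rik, shares 15 of the 17 positions and has no strand in the tables used. The strand of Zfp704 itself was taken from its peaks.

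Zfp365 held 17 peaks in a narrow block at the 3′ end. Its protein, known as DBZ, binds the neuronal scaffold DISC1. The peaks, on chromosome 10 (minus strand), lay between 120 and 2017 nt from the end. They formed 11 intervals that covered 1347 nt. Log2 fold enrichments ran from 3.11 to 4.19, with the strongest at 67887627 to 67887689, 1553 nt from the end. The highest −log10 p was 18.7. No peak of this gene lay anywhere else in its span of 26.6 kb.

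Zfp106 and Zfp275 completed the genes with several strong peaks confined to the end. Zfp106 encodes an RNA-binding protein whose loss causes degeneration of motor neurons in mice. Its 7 peaks on chromosome 2 (minus strand) had log2 fold enrichments of 4.20, 4.09, 3.84, 3.53, 3.42, 3.14 and 3.14. Their distances to the 3′ end ran from 664 to 2140 nt, and the strongest was at 120508710 to 120508757. Zfp275, on chromosome X, had 5 peaks of 4.45, 4.08, 3.94, 3.68 and 3.21 between 207 and 1704 nt from the end. Enrichment there was as high as in Zfp91, yet no −log10 p of Zfp275 exceeded 4.65.

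Among genes with their best peak between 3.7 and 4, Zfp706 and Zfp180 each had 2 peaks near the end. Zfp706 encodes a small protein that promotes the exit of mouse embryonic stem cells from self-renewal. Its peaks, from which its strand was taken, had log2 fold enrichments of 3.83 and 3.21, at 2515 and 2072 nt before that end. Those of Zfp180 were 3.79 and 3.19, at 244 and 923 nt. Zfp512b had 2 touching peaks of 3.51 and 3.21, both inside the long non-coding RNA gene Uckl1os, which runs on the other strand.

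Of the 145 peaks 120 (82.8%) had their midpoint within 5 kb of the 3′ end, against 87.7% in the other coding genes. That order turned for peaks of at least 4 (log2), with 95% and 86.9%, and for a window of 2 kb, with 64.8% and 61.7%. The median distance was 1552 nt in the zinc finger genes and 1491 nt in the others. In 24 of the 32 genes all peaks lay within that window, in 5 some did, and in 3 none did. In the other 1781 coding genes with a peak, the same counts were 1498, 153 and 130, so that all peaks lay in the window in 75% of the zinc finger genes and 84.1% of the others. Within 5 kb of the 5′ end lay 3 peaks, of which those of Zfp553 and Zfp703 lie in genes of 5.14 and 4.13 kb, where both ends are close. The annotation at hand gave gene spans without exons, so exonic and intronic positions could not be separated. No peak sequence was read, since no genome sequence was used.

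**Figure D3:**
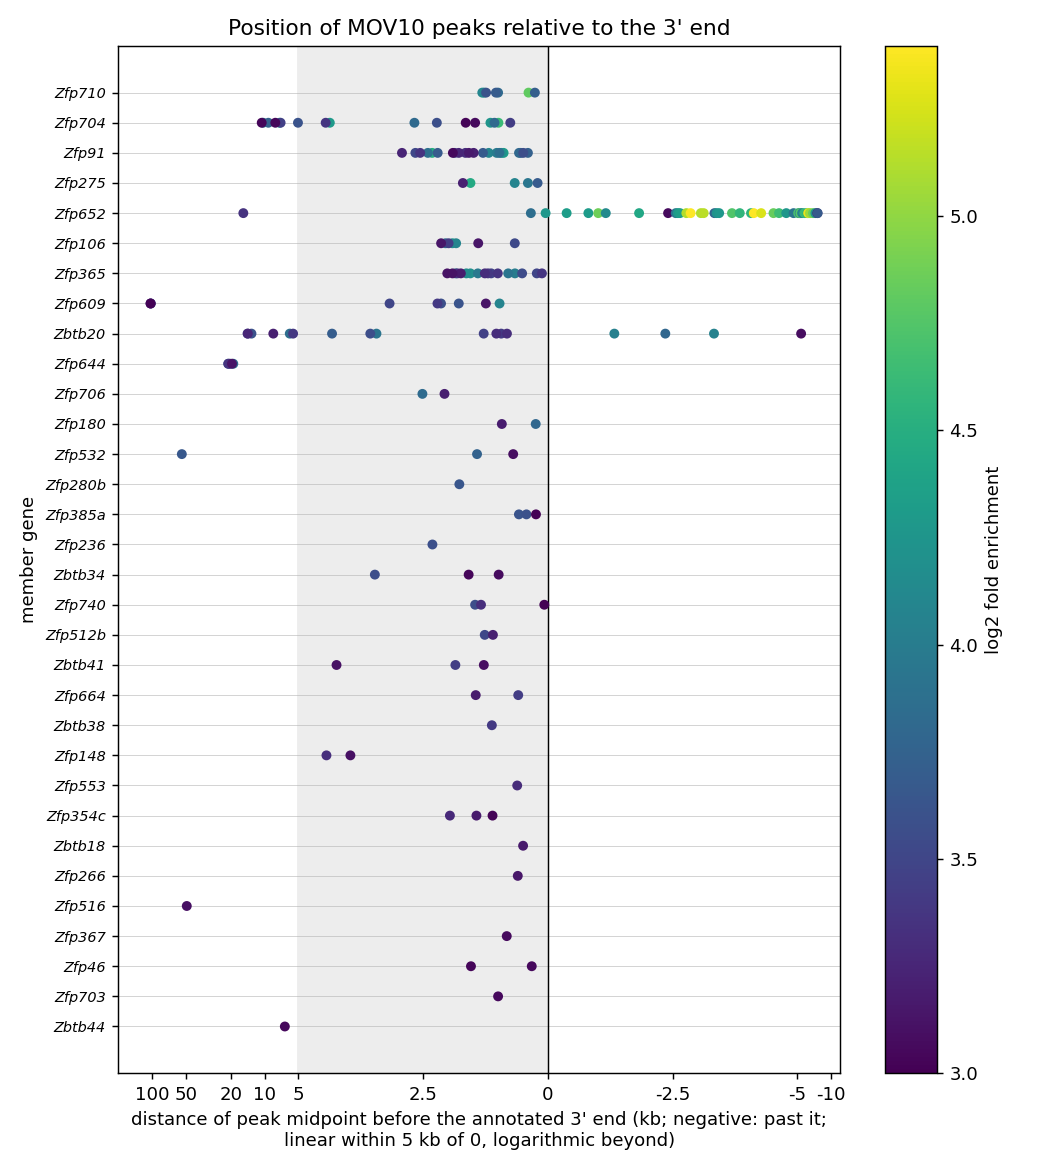
Distance of each peak midpoint before the annotated 3′ end (x axis, in kb, linear within 5 kb of the end and logarithmic beyond, negative past the end) for the same genes in the same order, coloured by log2 fold enrichment. Most points fall in the shaded 5 kb before the end, while those of Zfp644, Zfp516 and Zbtb44 all lie farther inside and those of Zfp652 lie mostly past the end.

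At least 1 peak more than 5 kb before the 3′ end was found in 8 zinc finger genes (25% of those with a peak), against 283 of the other coding genes with a peak (15.9%). In Zfp704 and Zbtb20 the farthest lay 10605 and 14177 nt before the 3′ end, in the last part of long genes, and in Zfp652 the peak was 186 nt from the 5′ end. Zfp644, whose human counterpart ZNF644 is a partner of the histone methyltransferases G9a and GLP, had all 5 of its peaks in the interior. On chromosome 5 (minus strand), they stood 18993 to 21097 nt before the 3′ end. Their log2 fold enrichments were 3.84, 3.61, 3.59, 3.35 and 3.12, and the strongest was at 106635708 to 106635756. They thus formed a block of about the width seen at the end of Zfp365, but in the interior of a gene of 80.1 kb.

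Zfp609 carried peaks in 2 separate places. Its protein binds the cohesin loader Nipbl and the Integrator complex and acts in cortical neuron migration. The strand of Zfp609, on chromosome 9, and with it the position of the 3′ end, was taken from its own peaks. The last 5 kb held 6 of its 9 peaks, led by one of 4.08 at 65692519 to 65692574. The other 3 lay more than 100 kb away, between 103109 and 103818 nt from the end and 32168 to 32878 nt from the 5′ end. Their log2 fold enrichments were 3.60, 3.29 and 3.02. The peak of 3.60, at 65794829 to 65795084, had the highest −log10 p of the gene, 15.7. The values of the 2 blocks thus overlapped, with those at the end running from 3.13 to 4.08.

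Zfp532 showed the same arrangement, with peaks of 3.75 and 3.09 at 1420 and 696 nt before its end. Their −log10 p values were 3.19, close to the lower limit of the list, and 4.29. Another peak, of 3.65 with a −log10 p of 8.70, lay 54579 nt from the end. This was near the middle of a gene of 109 kb on chromosome 18. The human counterpart of Zfp532, ZNF532, is known as a fusion partner of NUTM1 in NUT carcinoma. The single peak of Zfp516, an activator of brown fat genes, reached 3.10 (log2) and lay 49310 nt from the end. It falls outside the rule for named genes and is named after its values were seen. For Zfp532 and Zfp516 too, the strand was taken from their own peaks.

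Zbtb20 led the BTB class. It encodes a repressor that shapes hippocampal neurons and silences alpha-fetoprotein in the adult liver. On chromosome 16 (plus strand), 13 peaks lay in its span of 759 kb, all in the last 14177 nt. Their log2 fold enrichments ran from 3.21 to 3.92, with the strongest at 43630902 to 43631011, 3436 nt before the 3′ end. Of these, 7 were within 5 kb of the end and 6 between 5572 and 14177 nt from it. A further 4 peaks lay past the annotated end, at 1332, 2353, 3329 and 5395 nt, with log2 fold enrichments of 4.03, 3.79, 4.05 and 3.08. The 2 strongest peaks of the locus thus lay past the end of the gene. All 4, and 9 of the 13, also lie in the span of Tigit, an immune receptor gene on the opposite strand.

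The other Zbtb genes had few and weak peaks. Zbtb34 had 3 peaks of 3.57, 3.07 and 3.03, and Zbtb41 had 3 of 3.44, 3.11 and 3.09, all in the last 5 kb. Zbtb38, whose protein binds methylated DNA, had 1 of 3.41 at 1123 nt from the end. Zbtb18, a repressor needed for cortical neuron development, had 1 of 3.16 at 497 nt, whose −log10 p of 3.01 was close to the lower limit of the list. Zbtb44 had 1 of 3.05, at 6602 nt from the end, with a −log10 p of 3.20. Also close to the lower limit were the Zbtb34 peaks of 3.57 and 3.03, with a −log10 p of 3.01. The Zbtb41 peak of 3.11, with 3.02, was as well.

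A stretch of 37 peaks followed the annotated 3′ end of Zfp652 on the same strand. The human counterpart of its protein, ZNF652, is a transcriptional repressor that works with the corepressor CBFA2T3. Within the span on chromosome 11 (plus strand) there were only 3 peaks. They had log2 fold enrichments of 4.27 at 46 nt before the end, 3.85 at 342 nt before the end, and 3.35 at 186 nt from the 5′ end. The 37 peaks past the end lay between 376 and 7575 nt from it, in no annotated gene, and merged into 29 intervals covering 2735 nt. Between the last peak of the span, 46 nt before the end, and the first past it, at 376 nt, no peak lay on that strand.

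The peaks past the end of Zfp652 had higher values than those within its span. The 37 peaks had a median log2 fold enrichment of 4.48, against 3.85 for the 3 in the span, and 25 of them exceeded the strongest of the span. The leading ones were 5.40 at 95768806 to 95768876, 5.39 at 95767521 to 95767629 and 5.33 at 95770887 to 95771007. In all, 8 reached a log2 fold enrichment of 5, a value that no peak in the span of any of the 468 genes reached. The highest −log10 p was 25.9, at 95768898 to 95769079, where the log2 fold enrichment was 5.26. The weakest was 3.06, at 2409 nt past the end.

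In windows of 2 kb past the end of Zfp652, the number of peaks was uneven. There were 5 in the first 2 kb past the end, 13 between 2 and 4 kb, 12 between 4 and 6 kb and 7 between 6 and 8 kb. The medians of these 4 windows were 4.32, 4.34, 4.63 and 4.48. Beyond 8 kb there were none, and the window from 10 to 20 kb held 0. The next annotated gene, the long non-coding RNA gene Gm38957 on the same strand, starts 12134 nt past the end of Zfp652, and the next coding gene, Phospho1, 59785 nt past it. Whether these peaks belong to a longer transcript of Zfp652 was not determined.

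**Figure D4:**
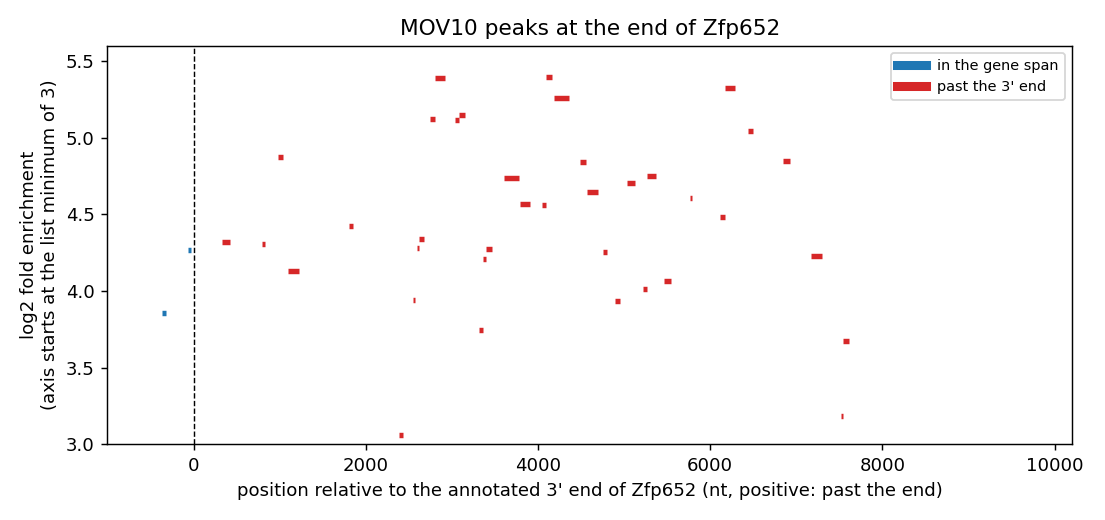
MOV10 peaks around the annotated 3′ end of Zfp652 (dashed line). Each bar runs over the length of a peak (x axis, nt from the end, positive past it) at the height of its log2 fold enrichment (y axis, starting at the list minimum of 3), in blue for the span and red past the end, where values reach 5.40.

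Peaks past an annotated end and outside every gene span were rare. Of 17872 coding genes with a known strand, 34 had such a peak within 10 kb of the 3′ end (0.19%), and Zfp652 was the 1 zinc finger gene among them. With 37 it held more of them than any other coding gene, ahead of Abhd2 with 28 and Ago2 with 26. These 37 were 13.5% of the 274 peaks of the whole list that lay in no gene span. By its strongest such peak Zfp652 came next among the 34 after Ago2 (6.15) and the synaptic vesicle gene Sv2c (5.96). With these peaks counted in, Zfp652 would have 40 peaks, the most of the zinc finger genes. It would rank 80th of 1813 coding genes by its strongest peak instead of 534th. That rank adds peaks past the end for Zfp652 alone, while every other gene is ranked by peaks in its span only.

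**Figure D5:**
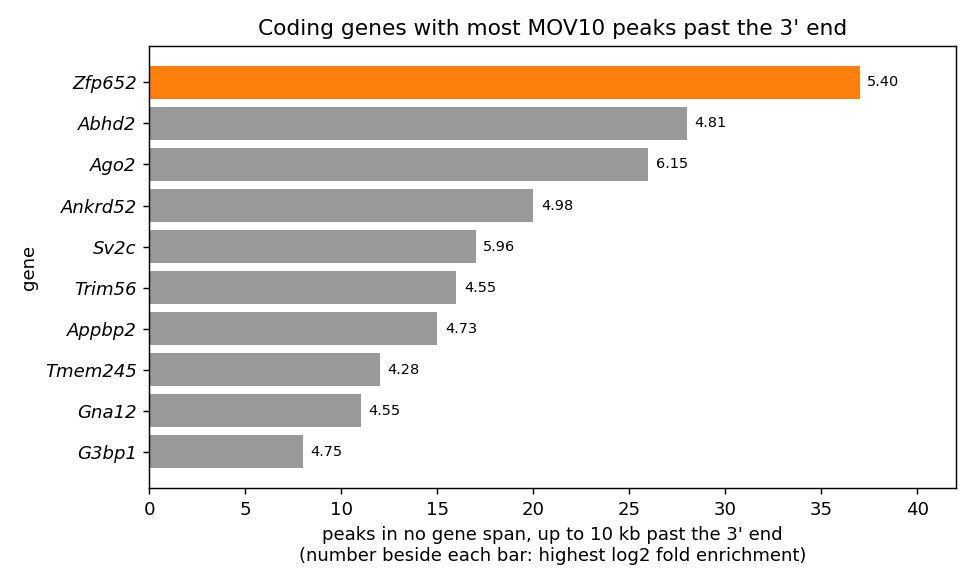
Number of MOV10 peaks in no gene span and up to 10 kb past the 3′ end on the same strand (x axis) for the 10 coding genes with most of them, with the zinc finger gene in orange and other genes in grey, and the highest log2 fold enrichment printed beside each bar. Zfp652 has 37 peaks and the next gene, Abhd2, 28.

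The remaining peaks past the ends of zinc finger genes lay in other coding genes. Zbtb22 had 3 of them, of 3.38, 3.37 and 3.33, between 9396 and 9725 nt past its end and within the span of Tapbp. In all, zinc finger genes with a known strand had 44 peaks up to 10 kb past the end, 37 at Zfp652, 4 at Zbtb20 and 3 at Zbtb22. For 71 of the 468 genes no strand was known. Next to these, peaks within 10 kb of either side and in the matching direction were found at Zfp654, with 7 inside Cggbp1, and at Zkscan14, with 4 inside Atp5j2. They cannot be placed before or after those genes.

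On the strand opposite to a zinc finger gene lay 3 peaks, which were not counted for it. Both peaks of this kind in Zfp335, of 4.18 and 3.87, lay 1814 and 2912 nt past the annotated end of Pcif1, the nearest coding gene on their strand. The 1 in Zfp385c, of 3.003, lay in the coding gene Nkiras2.

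Of the 32 genes, 13 were not named by the rule, and they held 22 peaks. Their strongest log2 fold enrichments ran from 3.05 in Zfp703 to 3.64 in Zfp280b, with a median of 3.29. They were Zfp148, Zfp236, Zfp266, Zfp280b, Zfp354c, Zfp367, Zfp385a, Zfp46, Zfp516, Zfp553, Zfp664, Zfp703 and Zfp740. Zfp148 encodes ZBP-89, which binds GC-rich promoters, and had peaks of 3.33 and 3.09 at 4438 and 3958 nt from the end. Zfp385a, which encodes the p53 cofactor and RNA-binding protein Hzf, had 3 peaks of 3.63, 3.59 and 3.01 within 581 nt of the end. Zfp703 and Zfp46, with 3.05 each, and Zfp367, with 3.06, were among the genes just above the lower limit of the list.

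The other 436 zinc finger genes had no peak in the span. A further look at 18 genes chosen by name for their known roles, with earlier results of these data known, found a peak in the span of 4, Zfp106, Zfp91, Zbtb18 and Zbtb20. With so few genes nothing is read from that count beside the background of 8.28%. The RNA-binding protein genes Zfp36, Zfp36l1 and Zfp36l2 had none, nor had the GATA cofactor genes Zfpm1 and Zfpm2 or the ribosome quality control gene Zfp598. None was listed in Zfp42, which encodes the stem cell factor REX1, in the imprinting regulator gene Zfp57 or in the retroviral silencer gene Zfp809. The same held for Zfp207, Zfp281, Zbtb7a, Zbtb16 and Zbtb33. Genes without a peak spanned a median of 17.4 kb and genes with one 26.3 kb, a difference also seen in the other coding genes (15.6 kb without and 43.0 kb with a peak).

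Zinc finger transcription factor genes with other names were counted in the same way. Of 26 Klf and Sp genes, 2 had peaks (7.69%), Sp1 with 8 up to 4.16 and Klf7 with 14 up to 4.06. Of 66 genes of further C2H2 families, 6 had peaks (9.09%), beside a background of 8.28% over all coding genes. Among these were Vezf1 with 10 peaks up to 4.96, Prdm4 with 4 up to 4.77, Maz with 7 up to 4.73 and Zfhx3 with 6 up to 4.23. Zfhx2 and Glis2 had 1 each, of 3.12 and 3.14. The only coding gene whose symbol starts with Znf had none, and whether it encodes a transcription factor was not checked. Of 9 cofactors of KRAB zinc finger proteins, 1 had peaks, the heterochromatin protein gene Cbx5, with 110 up to 6.48. Trim28 and Setdb1 had none. Of 10 corepressors of BTB proteins, Hdac4 alone had a peak, of 3.03.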

How the data were processed

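MOV10 eCLIP and input libraries of N2A cells were represented by 1 deposited peak list, named as MOV10 IP against input, with IDR, the irreproducible discovery rate, which keeps peaks shared by replicates. Per the submitters' processing notes, builds were mm10 and GRCm38.p6. No source used here gives the aligner, peak caller or thresholds. The list has no header. Its first value was read as the deposited −log10 p per peak and its second as the deposited log2 fold enrichment by the authors, from their ranges and the usual order of such columns, so statements on strength rest on that reading.

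Start positions were converted to count from 1. Gene spans came from RefSeq GRCm38.p6, and strands from its promoter table, which gave 389 of the 468 genes one. On peaks in a single span that strand matched in 99.9% of 8775 cases. For 8 further genes the strand of their own peaks was used, so an antisense source cannot be told apart there. These were Zfp704, Zfp609, Zfp706, Zfp532, Zfp236, Zfp354c, Zfp516 and Zfp703. Which end of them counts as the 3′ end rests on those same peaks. Shares have exact (Clopper-Pearson) 95% intervals. Python 3.11.15, pandas 2.3.3 and scipy 1.17.1 were used, and gene assignment was tested on simulated peaks.

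Named genes were the 12 with the strongest peaks, the 8 with most (ties kept), every Zbtb, Zkscan and Zscan gene with a peak, up to 10 genes with peaks only past the 3′ end, the 6 strongest with interior peaks, genes with peaks only in overlapping genes and 18 listed by role. Protein features planned for the rule were not used, as no protein sequences were at hand. Members and lists were chosen with earlier results of these data known.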

Additional observations from a re-analysis of the deposited data

How the results depend on the processing

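Results were recomputed under other thresholds, assignment rules and windows. Of 39 alternative values, 30 stayed close to those reported (counts within 1.5-fold, medians and shares within their 95% intervals). These bounds are loose, as 22 genes in place of 32 and a median of 1.5 peaks in place of 2.5 counted as close. The interval of the 5 kb share treats peaks as independent, though many lie in the same gene. Restricting the list to enrichments of 4 (log2) and above left 8 zinc finger genes with 20 peaks, raised the median strongest value to 4.36 (4.51 in the other coding genes) and put 95% of peaks within 5 kb of the 3′ end (86.9% in the others), so the order of that share against the other genes turned, as did that of the median number of peaks per gene (2.5 and 2). A −log10 p of at least 5 left 95 peaks in 22 of the 468 zinc finger genes, beside 10006 peaks in 1404 of the 21432 other coding genes. The share of peaks within 2 kb of the end was 64.8% (61.7% in the other genes, the order turned again), and within 1 kb 28.3% (35.4%). Up to 5 kb past the end there were 28 peaks in place of 44, and without Zfp652, chosen after the data were seen, 7. Counting peaks on either strand, also added later, gave 34 zinc finger genes with 148 peaks, beside 1834 other coding genes with 12099. Merging touching peaks gave a median of 2 peaks per gene in both groups and made Zfp704, with 15, the gene with most in place of Zfp91. With a neighbour distance of 20 kb in place of 50 kb, clustered zinc finger genes had a peak in 2.63% and isolated ones in 9.71%, and with 200 kb in 2.78% and 13.3%. The alternative restricted to proteins with a C2H2 match was not run, since no protein sequences were at hand. No paired analysis was possible because the list holds 1 value per peak over all libraries, and leaving out a replicate was not possible for the same reason. The depth of the libraries is unknown and limits every absence of a peak.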
